A study of Mus musculus with 7 samples.

Results

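The ETS factor genes other than Erg were described here by the chromatin around them. The 8 genes were Fli1, Ets1, Ets2, Etv6, Elf1, Elf4, Elk3 and Gabpa, and their members in the data were all ATAC-seq peaks that overlapped a gene body or the 50 kb on either side of it (mm10, GENCODE M21). ATAC-seq measures how accessible DNA is in chromatin, and peaks mark the places where fragments accumulate above the background. The windows held 1471 of 647973 peaks, with 203, 215 and 188 in WT pre-proB, proB and preB, 219 in the Erg KO library, and 225, 219 and 202 at the same stages of Rescue. Merged over the libraries, these made 312 of 145247 union regions, of which 11 overlapped a promoter of an ETS factor gene, 6 a promoter of another gene and 295 none.

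The genes lie on 6 chromosomes of mm10. Fli1 (ENSMUSG00000016087, chr9:32422204-32542861, minus strand) and Ets1 (ENSMUSG00000032035, chr9:32636221-32757820, plus strand) are neighbours whose windows shared 3 regions, and had 47 and 58 regions. Ets2 (ENSMUSG00000022895, chr16:95702075-95721051, plus) had 19, Etv6 (ENSMUSG00000030199, chr6:134035700-134270158, plus), the longest gene at 234 kb, had 92, and Elf1 (ENSMUSG00000036461, chr14:79481194-79582494, plus) had 38. Elf4 (ENSMUSG00000031103, chrX:48411046-48463132, minus) had 22, Elk3 (ENSMUSG00000008398, chr10:93247414-93311135, minus) had 30 and Gabpa (ENSMUSG00000008976, chr16:84834925-84863779, plus) had 9.

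Pre-proB, proB and preB cells, successive stages of B-cell development, were sorted from mice, and each of the 7 groups had 1 library, so no spread between animals could be estimated and no comparison was tested. WT mice were Ergfl/fl and carried no Cre. Erg KO mice were Rag1CreT/+;Ergdelta/delta, in which a Cre driven by Rag1 deletes Erg in lymphoid cells, and Rescue mice were Rag1CreT/+;Ergdelta/delta;IgHVH10tar, which adds, in the heterozygous state by the study's text, a heavy chain allele that is already functionally rearranged. Stages follow the sample titles, although the source names of all 3 Rescue libraries gave another stage (the library titled pre-proB was named proB, the proB title came with preB, and the preB title with pre-proB). The lists held 76465 to 105649 peaks, with a background of 3.49 to 4.6 fragments and no summit under 10. Read totals were not used here. A height comes from a population of cells, so fewer open cells and less access per cell cannot be told apart. The study used male and female mice of several weeks of age, and the number, age and sex behind each library and any pooling of animals were not stated in the labels or methods used here. Erg itself had a promoter peak in every library, and a promoter peak does not check whether the floxed part of the gene was deleted. Its relative summit height was 0.771, 0.637 and 0.54 in WT, Erg KO and Rescue pre-proB, against 2.12 to 2.96 in the 4 proB and preB libraries.

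ETS factors bind DNA through a winged helix domain that reads the letters GGAA, and the bases beside this core separate the subfamilies. Several members overlap in the sites they bind, so the other ETS genes are of interest in cells that lack Erg. Fli1 is the closest relative of Erg, Ets1 and Ets2 are activators that respond to Ras and MAP kinase signals, and Etv6 is a repressor often rearranged in childhood B-cell leukaemia. Elf1 and Elf4 are related activators of lymphoid genes, Elk3 acts with serum response factor, and Gabpa is the DNA-binding subunit of the GABP complex, which serves housekeeping and mitochondrial promoters.

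Heights are given as relative summit height, the fold the authors deposited for the highest summit of a region divided by the median fold of the same library over the 46442 union regions with a peak in all 7 lists. A value of 1 is therefore a typical constitutive region of that library, and the weakest called peaks of the libraries lay between 0.13 and 0.182. Intervals are at the 95% level, come from the number of fragments at the summit and cover counting error only. Distances are from the nearest annotated transcription start site (TSS) of the gene, along its strand. Other coding genes overlap the windows of Fli1 (Kcnj1), Elf1 (Kbtbd6, Sugt1 and Wbp4), Elf4 (Aifm1 and Bcorl1), Elk3 (Cdk17) and Gabpa (Atp5j and Jam2). A region is named by its ETS gene for position only. For Ets1 the annotated gene body begins upstream of all 4 start sites of the basic annotation, so its window reaches further 5′ than 50 kb from them.

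The elements on which the stage differences below rest are printed first, as the bases around the highest summit in the RefSeq genome GRCm38.p6, the build of mm10. Capitals mark the words searched on both strands: ETS (ACAGGAAA, ACAGGAAG, ACCGGAAA or ACCGGAAG), PU.1 (GAGGAAGT), RUNX (TGTGGTT), E-box (CAGCTG or CACCTG), EBF1 (TCCC, any 2 bases, GGGA) and a CTCF word. An ETS and a PU.1 word share the core GGAA but cannot match on the same core. These 6 elements differed between stages or genotypes in the values given further on. Etv6 +253.0 kb is shown over 300 bases and every other element over 200. It held a PU.1 word at -134 bases from the summit, which a window of 200 bases would leave out. Etv6 +172.3 kb held 3 E-box words, Ets1 -86.6 kb held 1 E-box word and the others held none of the words in the bases shown.
Etv6 +253.0 kb, chr6:134288595-134288894, plus strand: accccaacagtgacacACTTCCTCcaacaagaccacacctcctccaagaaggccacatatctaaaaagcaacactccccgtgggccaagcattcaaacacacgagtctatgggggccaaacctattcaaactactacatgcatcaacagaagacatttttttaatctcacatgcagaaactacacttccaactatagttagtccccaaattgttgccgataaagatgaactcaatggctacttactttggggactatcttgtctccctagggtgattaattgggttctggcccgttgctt
Etv6 +172.3 kb, chr6:134207931-134208130, plus strand: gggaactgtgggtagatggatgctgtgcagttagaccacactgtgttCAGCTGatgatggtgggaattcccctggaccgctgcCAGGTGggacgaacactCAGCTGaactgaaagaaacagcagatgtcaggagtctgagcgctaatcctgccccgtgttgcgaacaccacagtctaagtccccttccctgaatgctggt
Ets1 -86.6 kb, chr9:32609304-32609503, plus strand: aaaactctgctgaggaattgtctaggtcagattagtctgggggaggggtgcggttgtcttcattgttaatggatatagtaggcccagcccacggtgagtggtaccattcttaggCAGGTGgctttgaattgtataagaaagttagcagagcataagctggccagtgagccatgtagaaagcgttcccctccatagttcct
Elk3 -42.9 kb, chr10:93353975-93354174, plus strand: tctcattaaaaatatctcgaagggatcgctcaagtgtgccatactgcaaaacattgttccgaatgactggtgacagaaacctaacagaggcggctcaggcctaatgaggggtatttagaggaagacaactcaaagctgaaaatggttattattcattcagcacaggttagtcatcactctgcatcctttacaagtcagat
Ets2 +26.9 kb, chr16:95728852-95729051, plus strand: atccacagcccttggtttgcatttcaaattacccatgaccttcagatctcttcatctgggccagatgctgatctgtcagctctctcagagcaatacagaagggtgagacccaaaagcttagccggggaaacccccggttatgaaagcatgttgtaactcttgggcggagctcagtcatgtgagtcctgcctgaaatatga
Ets1 +35.0 kb, chr9:32731321-32731520, plus strand: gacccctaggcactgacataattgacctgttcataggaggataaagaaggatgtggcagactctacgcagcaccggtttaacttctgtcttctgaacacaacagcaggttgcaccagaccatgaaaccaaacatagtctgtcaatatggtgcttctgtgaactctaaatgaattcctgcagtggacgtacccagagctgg

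The next 5 elements, chosen after their values were seen, are shown because they held ETS words near the summit and had a peak in all 7 lists. Etv6 +150.8 kb held 3 ETS words, a pair of them back to back on opposite strands, Etv6 +154.3 kb and Elf4 +20.4 kb held 2 ETS words and an E-box word each, and Etv6 +29.6 kb and Ets1 -43.6 kb held 1 ETS word each.
Etv6 +29.6 kb, chr6:134065151-134065350, plus strand: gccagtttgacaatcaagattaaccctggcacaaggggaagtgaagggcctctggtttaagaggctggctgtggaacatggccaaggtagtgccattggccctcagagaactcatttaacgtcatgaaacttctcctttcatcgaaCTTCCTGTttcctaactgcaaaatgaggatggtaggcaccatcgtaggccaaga
Etv6 +154.3 kb, chr6:134189878-134190077, plus strand: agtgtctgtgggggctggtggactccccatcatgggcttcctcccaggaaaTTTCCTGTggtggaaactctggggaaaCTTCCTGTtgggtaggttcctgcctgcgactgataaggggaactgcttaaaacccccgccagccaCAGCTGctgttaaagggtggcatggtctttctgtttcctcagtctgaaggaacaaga
Etv6 +150.8 kb, chr6:134186354-134186553, plus strand: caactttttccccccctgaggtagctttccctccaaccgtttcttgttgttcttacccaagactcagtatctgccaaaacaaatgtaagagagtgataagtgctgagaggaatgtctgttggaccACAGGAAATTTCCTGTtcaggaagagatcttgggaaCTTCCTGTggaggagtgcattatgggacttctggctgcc
Ets1 -43.6 kb, chr9:32652292-32652491, plus strand: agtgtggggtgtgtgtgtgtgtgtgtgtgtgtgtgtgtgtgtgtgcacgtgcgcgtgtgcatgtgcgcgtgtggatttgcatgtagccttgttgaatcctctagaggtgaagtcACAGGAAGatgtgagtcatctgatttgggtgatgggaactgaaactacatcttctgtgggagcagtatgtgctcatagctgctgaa
Elf4 +20.4 kb, chrX:48433651-48433850, plus strand: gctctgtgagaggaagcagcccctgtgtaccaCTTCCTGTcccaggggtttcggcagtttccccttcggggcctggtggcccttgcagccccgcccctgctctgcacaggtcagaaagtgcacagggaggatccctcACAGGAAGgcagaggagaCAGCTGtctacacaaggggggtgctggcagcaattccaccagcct

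All 8 ETS factor genes had a promoter peak in all 7 lists. Among all coding genes a promoter peak was present for 63.2%, 65.5% and 61.4% in WT pre-proB, proB and preB, 64.2% in the Erg KO library, and 64.5%, 64.8% and 63.1% at the same stages of Rescue. In the whole ETS family of 26 genes, 23 had a promoter peak in every library except Rescue proB, where 24 had. Fev and Spdef had none in any library, Spic had a peak in both preB libraries and in Rescue proB, and Ehf lacked a peak in both preB libraries.

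Promoter height differed between stages for Fli1, Ets2, Elk3 and Elf4 and hardly between genotypes at pre-proB. At the Fli1 promoter the relative summit height was 2.25, 3.59 and 4.67 in WT pre-proB, proB and preB, 2.16 in the Erg KO library, and 2.2, 3.96 and 4.93 at the same stages of Rescue. The peak reaches into the promoter window of 1000 bp on each side of the TSS, but its summit lay 1279 to 1301 bp from the TSS in the 7 libraries, so the height is that of a site just outside the window. The 3 pre-proB libraries were the 3 lowest, and WT preB stood 2.07 times above WT pre-proB (1.72 to 2.5).

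The Ets2 promoter had the widest range of the 8. Its relative summit height was 1.54, 2.79 and 4.09 in WT pre-proB, proB and preB, 1.57 in the Erg KO library, and 1.45, 3.25 and 3.67 at the same stages of Rescue. WT preB was 2.65 times WT pre-proB (2.14 to 3.3), and the proB libraries lay in between.

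The Elk3 promoter took a step between pre-proB and proB and none after it. Its relative summit height was 1.59, 3.49 and 3.35 in WT pre-proB, proB and preB, 1.58 in the Erg KO library, and 1.55, 2.86 and 2.99 at the same stages of Rescue. WT proB was 2.19 times WT pre-proB (1.78 to 2.72).

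Elf4, an X-linked gene, went the other way at the promoter with its highest peak. The gene has 2 annotated start sites, and this peak (chrX:48453200-48454797 in WT pre-proB) lies inside the gene, at the downstream one. A separate region at the upstream start site, with its first base at chrX:48462272, is not described here. The height of the downstream promoter was 2.52, 1.67 and 1.97 in WT pre-proB, proB and preB. It was 2.63 in the Erg KO library, and 2.85, 1.93 and 1.93 at the same stages of Rescue. WT proB was 0.663 times WT pre-proB (0.531 to 0.828).

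The remaining promoters moved less between stages. Gabpa had the highest promoter of the 8, at 7.57, 8.66 and 11.1 in WT pre-proB, proB and preB, at 7.65 in Erg KO pre-proB and at 8.03, 9.58 and 12 in Rescue pre-proB, proB and preB. That peak also covers the promoter of Atp5j, so the height cannot be given to either gene alone. Ets1 followed at 6.67, 6.1 and 8.14 in the WT stages, 6.88 in Erg KO and 6.73, 7.21 and 6.9 in the Rescue stages.

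Etv6 stood at 4.49, 5 and 6.06 in the WT stages, 4.45 in Erg KO and 4.33, 5.04 and 5 in the Rescue stages. The first promoter of Elf1, shared with Wbp4, stood at 3.61, 4.96 and 3.86 in the WT stages, 3.31 in Erg KO and 3.42, 3.51 and 3.37 in the Rescue stages. In the order of WT pre-proB heights, the neighbours Fli1 and Elf4 (2.25 and 2.52), Ets2 and Elk3 (1.54 and 1.59) and Ets1 and Gabpa (6.67 and 7.57) had summit intervals that overlapped, and those of Elf1 and Etv6 met.

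Promoters as a class also shifted between these libraries. Over the 12848 promoter regions with a peak in all 7 lists, the median relative height was 1.09 times higher in WT proB and 1.25 times higher in WT preB than in WT pre-proB. Measured against that shift, the WT preB to pre-proB ratio was 1.66 for Fli1 (1.37 to 2), 2.12 for Ets2 (1.71 to 2.64), 1.68 for Elk3 (1.35 to 2.1), 0.625 for Elf4 (0.498 to 0.782), 1.17 for Gabpa (1.05 to 1.3), 1.08 for Etv6 (0.935 to 1.25), 0.974 for Ets1 (0.863 to 1.1) and 0.854 for Elf1 (0.72 to 1.02).

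At pre-proB, loss of Erg left the 8 promoters at their WT heights within counting error. The ratio of Erg KO to WT ran from 0.915 at Elf1 (0.777 to 1.08) to 1.04 at Elf4 (0.862 to 1.26), and all 8 intervals included 1. For Fli1, the gene closest to Erg, the ratio was 0.961 (0.782 to 1.18). At Ets2, the weakest of the 8, the ratio was 1.02 (0.796 to 1.3), and differences within such an interval were not detectable at this depth.

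**Figure D1:**
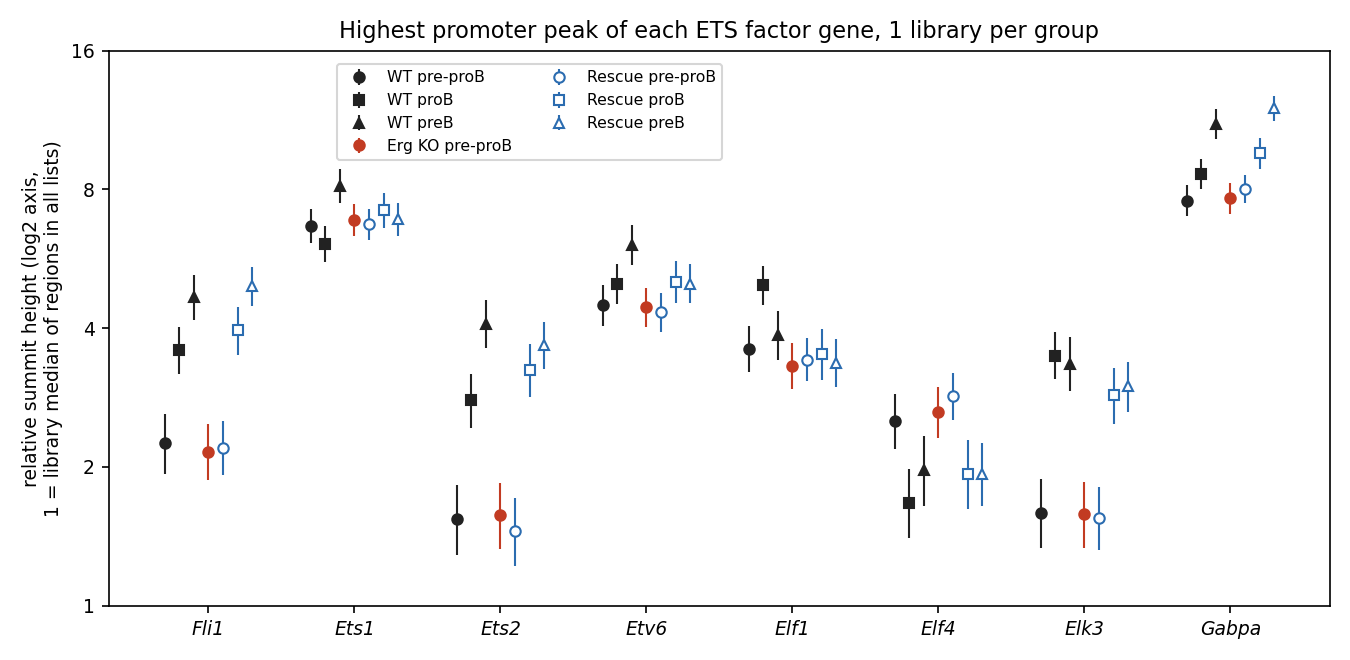
Relative summit height (log2 axis) of the highest promoter peak of each ETS factor gene in the 7 libraries, with 95% Poisson intervals of the summit pileup. The 3 pre-proB libraries lie together for each gene, and WT preB lies 2.65 times above WT pre-proB for Ets2 and 0.782 times as high for Elf4.

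The peaks found in a single genotype at pre-proB were weak ones. Of the 203 WT pre-proB peaks, 17 (8.37%, Wilson 5.29 to 13) had no overlapping Erg KO peak, against 6.88% of the whole list. In the opposite direction, 37 of 219 Erg KO peaks (16.9%, 12.5 to 22.4) were missing from WT pre-proB, against 13.6% of the whole list. Both shares lay near those of the whole lists, and their order turned when weak peaks were left out, for a cause that was not tested. At a -log10 q of at least 10 the first share was 7.43% (whole list 6.09%) and the second 5.52% (whole list 10.4%). With every list cut to the length of the shortest, the first share was 9.94% (whole list 7.93%) and the second 2.03% (whole list 8.33%), so the larger share was then that of WT. The unshared peaks had a median -log10 q of 4.61 against 30 for shared WT peaks and of 4.84 against 41 for shared Erg KO peaks.

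By gene, the WT pre-proB peaks missing from Erg KO numbered 6 of 66 at Etv6, 4 of 34 at Fli1, 2 each at Ets1, Elf1 and Elk3, 1 at Ets2 and 0 of 16 and 0 of 6 at Elf4 and Gabpa. Among the Erg KO peaks missing from WT, Etv6 held 11, Elf1 8, Fli1 6, Ets1 4, Ets2 3, Elf4 and Elk3 2 each and Gabpa 1. Etv6, the gene with the most peaks, thus held the most unshared peaks in both directions.

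Among the 106 regions present in all 7 lists, 0 changed by 2-fold or more in either direction between WT and Erg KO pre-proB, where 0.0624% of all such regions were at least 2-fold higher and 0.439% at least 2-fold lower. The log2 difference ran from -0.67 to 0.47 with a median of -0.05, and no test was run because each group had 1 library. Between Rescue and WT pre-proB the count was again 0 in each direction, with 0.0667% and 0.588% of all regions.

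The 3 highest WT pre-proB peaks missing from Erg KO lay at Etv6 +253.0 kb (relative height 0.458), Ets1 -85.2 kb (0.337) and Etv6 +201.5 kb (0.337). The first pair belong to elements that were far higher in proB and preB cells. The 3 highest Erg KO peaks absent from the WT pre-proB list lay at Etv6 +94.3 kb (0.341), Ets2 -27.5 kb (0.286) and Elf4 +12.5 kb (0.275), and Rescue pre-proB also had a peak at the first pair (0.36 and 0.42).

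**Figure D2:**
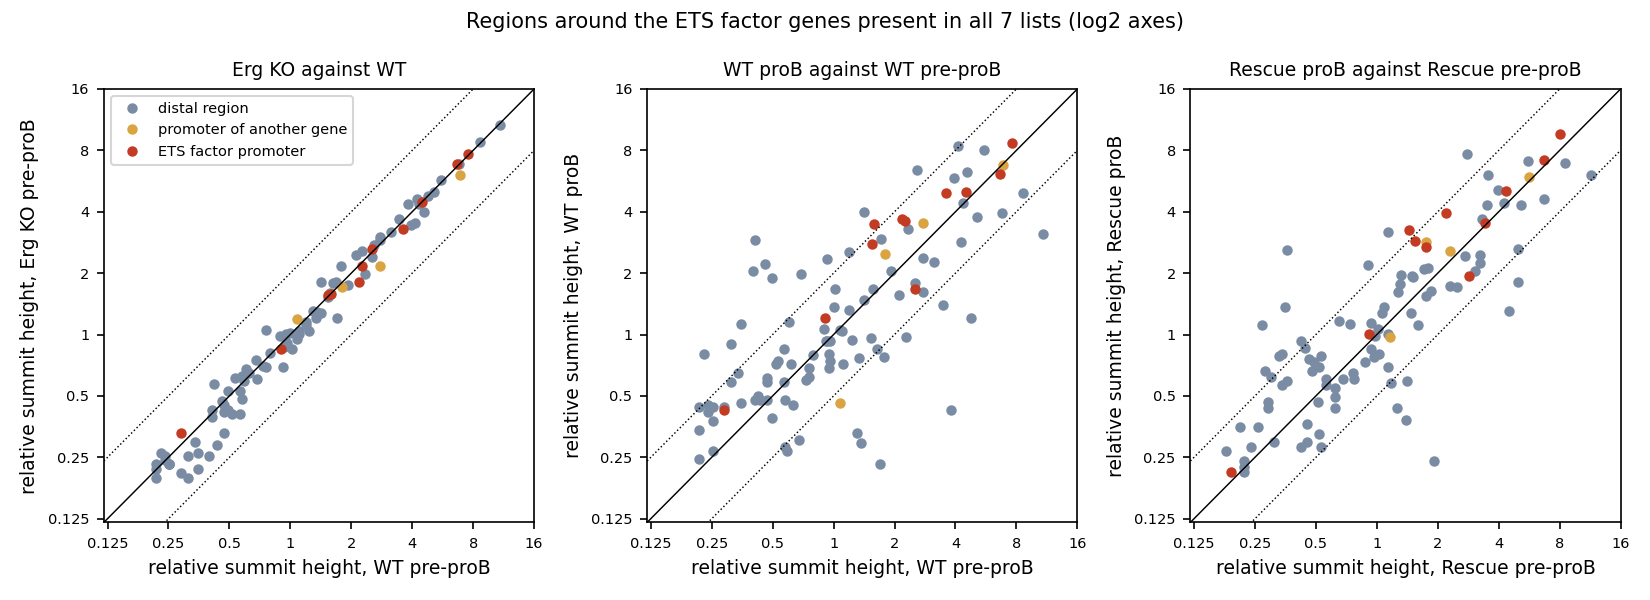
Relative summit height (log2 axes) in the 106 union regions around the ETS factor genes with a peak in all 7 lists, for Erg KO against WT pre-proB, WT proB against WT pre-proB and Rescue proB against Rescue pre-proB. Dotted lines mark a 2-fold change: 0 regions lie beyond them in the first panel, 15 above and 13 below in the second, and 12 above and 7 below in the third.

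From WT pre-proB to WT proB a smaller share of peaks was lost in the windows than over the whole list. Of the 203 WT pre-proB peaks, 50 (24.6%, 19.2 to 31) had no WT proB peak, against 34.1% of the whole list. Of the 215 WT proB peaks, 70 (32.6%, 26.6 to 39.1) had no WT pre-proB peak, near the 31.9% of the whole list. By gene, Etv6 lost 18 of 66 and gained 15 of 59, and Ets1 lost 12 of 38 and gained 12 of 36. Fli1 lost 4 of 34 and gained 10 of 39, and Ets2 lost 1 of 5 and gained 8 of 12. Among the 8 genes, the Fli1 loss (11.8%, 4.67 to 26.6) lay below the whole-list share and the Ets2 gain (66.7%, 39.1 to 86.2) above it. The intervals of the other losses and gains included the whole-list share.

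Elk3 lost 5 of 17 and gained 10 of 23, Elf1 lost 6 of 23 and gained 12 of 27, Elf4 lost 3 of 16 and gained 3 of 16, and Gabpa lost 1 of 6 and gained 1 of 6. In total Etv6 went from 66 peaks in WT pre-proB to 59 in proB and 40 in preB, and in the Rescue libraries from 78 to 59 to 47, with 68 in Erg KO pre-proB. Ets2 went the opposite way, from 5 to 12 to 16 in WT and from 6 to 13 to 15 in Rescue, with 7 in Erg KO. The whole lists also shortened, from 95662 to 91668 to 76465 peaks in WT and from 105649 to 91471 to 84453 in Rescue.

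Peak heights changed alongside. Of the 106 regions in all lists, 15 were at least 2-fold higher and 13 at least 2-fold lower in WT proB than in WT pre-proB, against 13.2% and 13.1% of all such regions. Centred on promoters the counts were 12 higher and 14 lower. Etv6 held 6 of the 13 lower regions and 2 of the higher, Ets1 held 6 higher and 3 lower, and Elk3 and Fli1 held 3 higher each.

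At Etv6 elements changed both ways, with more lost than gained by preB. Of 66 WT pre-proB peaks, 30 (45.5%, 34 to 57.4) had no WT preB peak, an interval that included the 41.1% of the whole list. Of 40 WT preB peaks, 4 (10%, 3.96 to 23.1) had no WT pre-proB peak, against 26.1%. The whole lists also lost more peaks than they gained, 39324 against 19956. Etv6 +184.8 kb, in intron 3 (chr6:134219263-134221418), was the highest distal region of all 8 windows, with relative heights of 10.8, 10.7 and 11.4 in WT, Erg KO and Rescue pre-proB. It was lower at 3.1 in WT proB and 4.98 in WT preB, and at 6.07 and 5.93 in Rescue proB and preB. WT proB was 0.287 times WT pre-proB (0.249 to 0.331).

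Etv6 +172.3 kb, in the same intron (chr6:134206796-134208478) and carrying the 3 E-box words printed above, had the widest range of any region in all lists. Its heights were 3.81, 4.38 and 4.5 in WT, Erg KO and Rescue pre-proB, 0.427 and 0.333 in WT proB and preB, and 1.31 and 0.593 in Rescue proB and preB. WT proB was thus at 0.112 of WT pre-proB (0.0763 to 0.16).

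Etv6 +34.4 kb, in intron 2 (chr6:134069777-134070464), was the highest WT pre-proB peak lost in WT proB. It stood at 2.55, 2.73 and 2.79 in WT, Erg KO and Rescue pre-proB, had no peak in WT proB, WT preB or Rescue preB, and was at 0.648 in Rescue proB. Etv6 +29.6 kb, in intron 1 and with an ETS word, was at 4.8, 4.79 and 4.98 in WT, Erg KO and Rescue pre-proB and at 1.21 and 0.97 in WT proB and preB and 1.8 and 1.23 in Rescue proB and preB.

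Of the regions in all lists, Etv6 +241.4 kb, intergenic and downstream of the gene, had a range among the 3 widest, at 1.69, 1.81 and 1.92 in WT, Erg KO and Rescue pre-proB against 0.222 to 0.303 in the 4 later libraries. The Etv6 elements with several ETS words went both ways. Etv6 +154.3 kb, in intron 3, was at 4.24, 2.83 and 2.02 over the WT stages, 4.62 in Erg KO and 4.97, 2.63 and 2.04 over the Rescue stages. Etv6 +150.8 kb, in the same intron and with the back-to-back pair, was highest in WT proB at 1.9 and between 0.46 and 0.761 in each other library.

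The opposite change was seen at Etv6 +253.0 kb (chr6:134288202-134289395), which lies downstream of the gene in a window with no other coding gene. It had a weak peak of 0.458 in WT pre-proB, none in Erg KO or Rescue pre-proB, and heights of 5.7 and 5.61 in WT proB and preB and of 4.23 and 4.94 in Rescue proB and preB. WT proB was 12.4 times WT pre-proB (8.89 to 17.9).

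Around Ets2 the gains reached from the promoter to the region 3′ of the gene. Ets2 +26.9 kb (chr16:95728478-95729757), downstream of the gene, was at 2.59, 2.74 and 2.78 in WT, Erg KO and Rescue pre-proB, at 6.41 and 10.7 in WT proB and preB and at 7.72 and 9.32 in Rescue proB and preB. Ets2 +18.6 kb (chr16:95720005-95721113), in the 3′ UTR, was at 0.301 in WT pre-proB, had no peak in Erg KO or Rescue pre-proB, and reached 4.05 and 7.91 in WT proB and preB and 4.38 and 7.04 in Rescue proB and preB. WT preB was 26.3 times WT pre-proB there (17.5 to 41.4), on a weak WT pre-proB peak. A smaller element, Ets2 +24.9 kb, was the highest WT preB peak without a WT proB peak, at 1.21 in WT preB, 0.239 in Rescue proB and 0.914 in Rescue preB.

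Ets1 held elements of each kind. Ets1 -86.6 kb (chr9:32608717-32609976) was at 0.41, 0.396 and 0.36 in WT, Erg KO and Rescue pre-proB, at 2.9 and 4.12 in WT proB and preB and at 2.59 and 3.31 in Rescue proB and preB. WT proB was 7.09 times WT pre-proB (4.91 to 10.5). Ets1 -85.2 kb, next to it, was at 0.337 in WT pre-proB, absent from Erg KO and Rescue pre-proB, and at 1.5 and 2.23 in WT proB and preB and 1.1 and 2.1 in Rescue proB and preB.

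Ets1 -43.6 kb, inside the annotated gene but outside its basic transcripts and with an ETS word, was at 1.19, 1.15 and 1.31 in WT, Erg KO and Rescue pre-proB and at 2.54 and 3.05 in WT proB and preB, with 1.97 and 2.79 in Rescue proB and preB. Ets1 +39.1 kb, in intron 5, went the opposite way. It was at 2.1, 2 and 1.99 in WT, Erg KO and Rescue pre-proB, had no WT proB or preB peak, and was at 0.662 and 0.37 in Rescue proB and preB. Ets1 +9.8 kb, in intron 1, was highest in a single library, at 8.41 in WT proB, against 4.13 in WT pre-proB, 3.38 in WT preB, 3.53 in Erg KO and 3.51, 4.3 and 2.86 in the Rescue stages.

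Other elements of Ets1 differed between Rescue and WT. Ets1 +35.0 kb, in intron 3 (chr9:32730699-32731900), was at 0.482 in WT pre-proB, had no peak in WT proB or preB, and stood at 0.912 in Erg KO pre-proB and at 0.83, 1.18 and 1.15 in Rescue pre-proB, proB and preB. It was 1.89 times higher in Erg KO than in WT pre-proB (1.28 to 2.85). Ets1 +30.4 kb, in intron 1, had no peak in WT or Rescue pre-proB, was at 0.209 in Erg KO, and stood at 0.902 and 1.68 in WT proB and preB against 2.7 and 3.46 in Rescue proB and preB.

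At Elk3 the 2 highest gained elements lay upstream of the gene. Elk3 -42.9 kb (chr10:93353209-93354449) had no peak in the 3 pre-proB lists and stood at 1.76 and 3.11 in WT proB and preB and 1.51 and 2.09 in Rescue proB and preB. Elk3 -48.5 kb was likewise absent from the 3 pre-proB lists and stood at 1.65, 1.02, 1.27 and 0.938 in the same libraries. Both are intergenic.

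The highest distal regions of Fli1, Elf1, Elf4 and Gabpa lay below those of Etv6, Ets2 and Ets1. The highest distal region of Fli1, at +31.6 kb in intron 1, was at 5.13, 3.77 and 4.02 in the WT stages, 5.02 in Erg KO and 5.17, 4.31 and 3.38 in the Rescue stages. Fli1 +27.8 kb, in the same intron, had no peak in the 3 pre-proB lists and stood at 1.07 in WT proB, 0.394 in WT preB, 0.296 in Rescue proB and 0.383 in Rescue preB. Elf1 +17.8 kb was at 3.46, 1.4 and 2.15 in the WT stages, 3.69 in Erg KO and 3.23, 2.45 and 1.81 in the Rescue stages, and Elf1 +26.1 kb, in intron 2, was at 1.36, 0.293 and 0.273 in the WT stages, 1.29 in Erg KO and 1.39, 0.38 and 0.247 in the Rescue stages. Elf1 -46.5 kb had no pre-proB peak and was at 0.659 and 2.11 in WT proB and preB and 0.394 and 1.4 in Rescue proB and preB.

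Elf4 +20.4 kb, in intron 1 and with 2 ETS words, was the highest distal region of its gene and hardly varied, between 4.11 and 4.91 in all 7 libraries. Gabpa had 9 regions in all, and its highest distal region, at +46.9 kb, was at 1.17, 1.51 and 1.37 in WT, Erg KO and Rescue pre-proB, absent from WT proB, and at 0.348 in WT preB, with 0.662 and 0.457 in Rescue proB and preB.

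**Figure D3:**
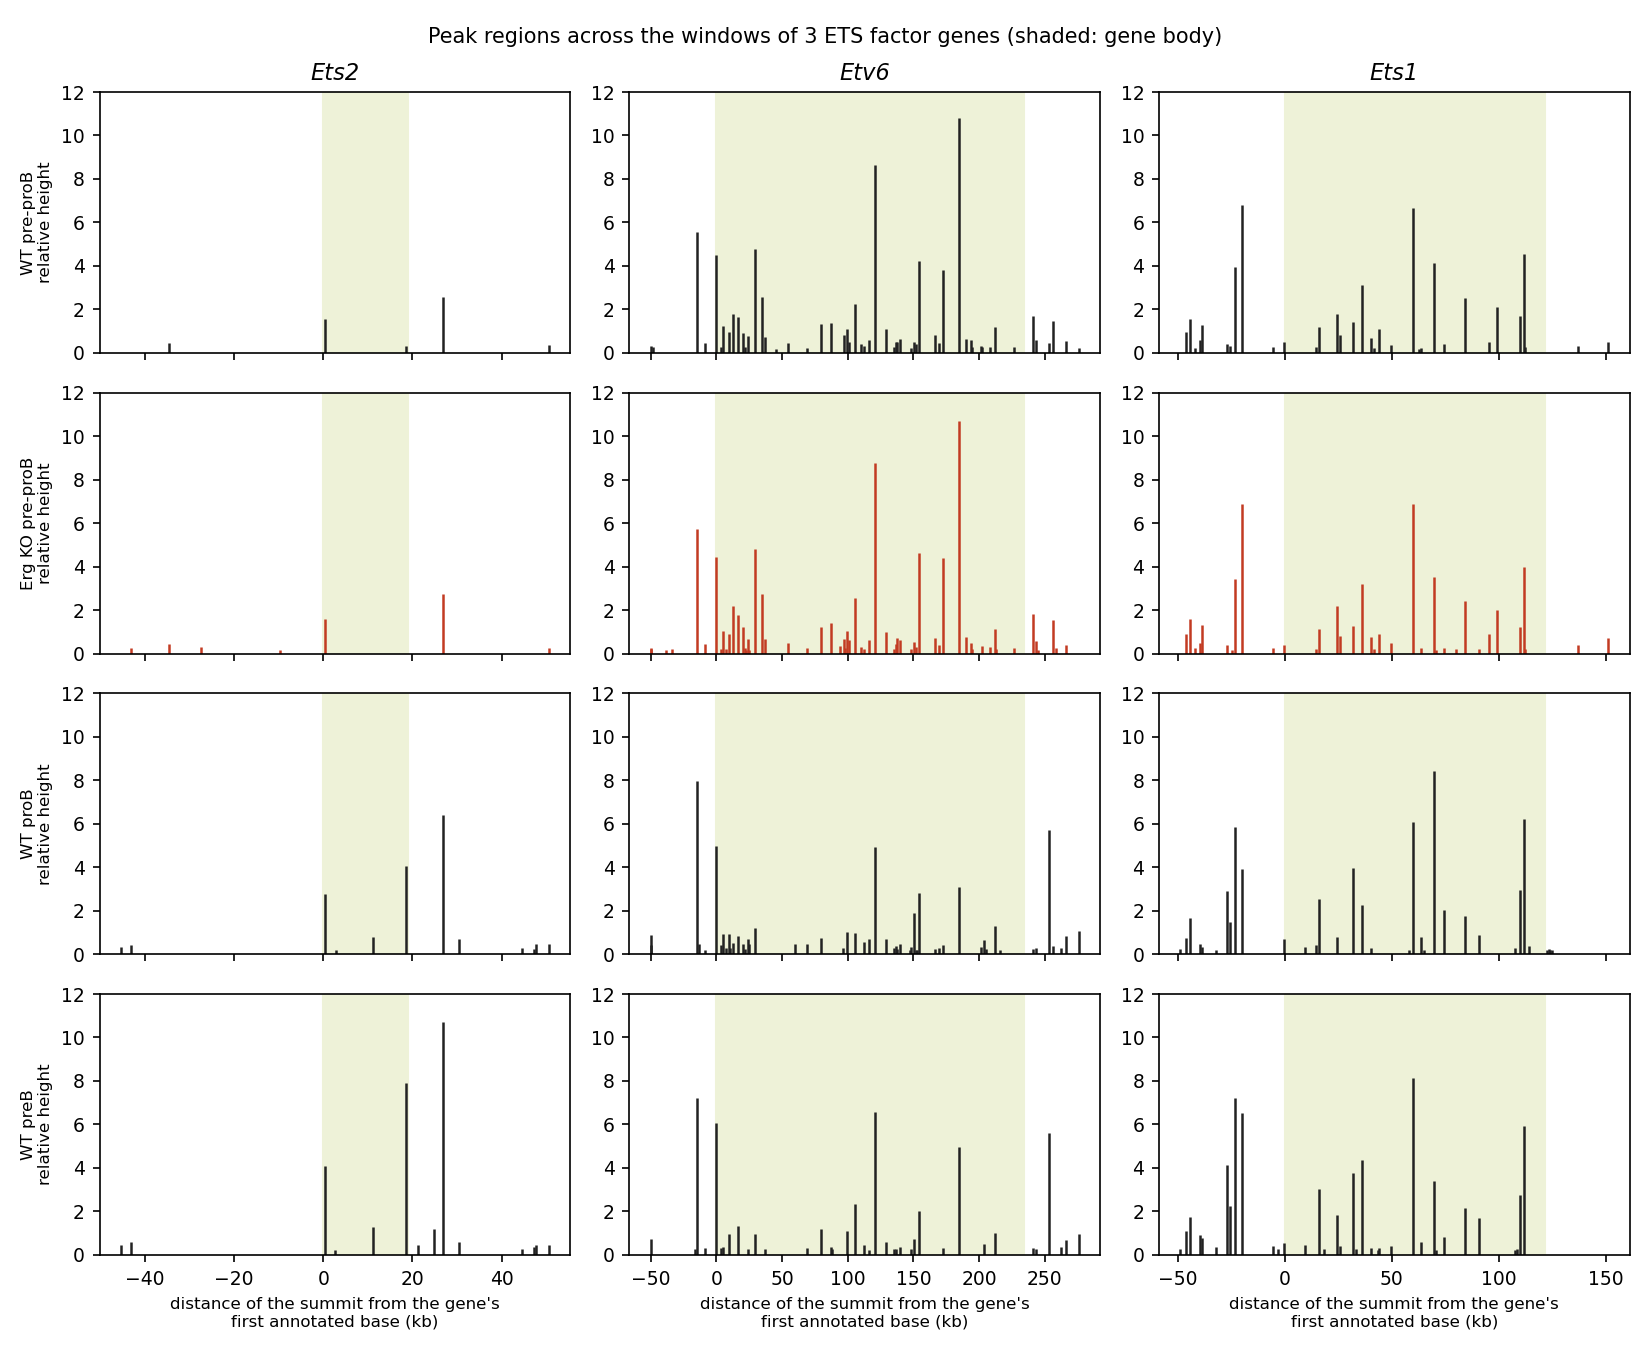
Relative summit height of every peak region across the windows of Ets2, Etv6 and Ets1 in WT pre-proB, Erg KO pre-proB, WT proB and WT preB, placed by distance of the summit from the first annotated base of the gene (for Ets1 this lies upstream of the promoter peak). The rows for WT and Erg KO pre-proB look alike, with the highest Etv6 line at 10.8 and 10.7, and Ets2 has its highest lines in WT preB, at 10.7 and 7.91.

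Between WT proB and WT preB fewer peaks were gained than between WT pre-proB and WT proB, but not fewer lost. The WT preB list was the shortest, at 76465 peaks. Of the 215 WT proB peaks, 58 (27%, 21.5 to 33.3) had no WT preB peak, against 26.7% of the whole list. Of the 188 WT preB peaks, 27 (14.4%, 10.1 to 20.1) had no WT proB peak, against 10.7%. In regions of all lists, 5 were at least 2-fold higher and 10 at least 2-fold lower in WT preB than in WT proB, against 5.09% and 5.89% of all such regions.

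Rescue and WT were compared at each stage, which asks how the windows look in cells that lack Erg and carry a rearranged heavy chain. At pre-proB, 14 of 203 WT peaks (6.9%, 4.15 to 11.2) had no Rescue peak, against 5.88% of the whole list, and 42 of 225 Rescue peaks (18.7%, 14.1 to 24.3) had no WT peak, against 15.6%. Among proB cells, 48 of 215 WT peaks (22.3%, 17.3 to 28.3) had no Rescue peak, against 20.6%, and 40 of 219 Rescue peaks (18.3%, 13.7 to 23.9) had no WT peak, against 19.8%. In preB cells 8 of 188 WT peaks (4.26%, 2.17 to 8.17) and 23 of 202 Rescue peaks (11.4%, 7.71 to 16.5) were unshared, against 8.02% and 17.9%. The second difference from the whole list turned at a -log10 q of at least 10, with 16.6% against 14.8%, and with lists cut to 38232 peaks, with 10.6% against 9.64%. If the Rescue stages were read from the source names instead, the WT peaks without a Rescue peak would be 28.1%, 31.2% and 11.7% at pre-proB, proB and preB. Whole-list shares under that reading are not given here, so these values are not read as particular to the windows.

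The pair of Erg-deficient pre-proB libraries differed by 17 of 219 Erg KO peaks (7.76%, 4.9 to 12.1) and 25 of 225 Rescue peaks (11.1%, 7.64 to 15.9), against 6.57% and 9.81% of the whole lists. In regions of all lists 0 of 106 differed by 2-fold between them in either direction, against 0.0301% and 0.0732% of all such regions.

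The 50 peaks lost from WT pre-proB to WT proB were looked up in the other lists. Erg KO and Rescue pre-proB each held a peak at 92% of them, near the 92.3% and 93.9% of all lost peaks. Rescue proB still held a peak at 48% (34.8 to 61.5), against 33.7% of all lost peaks, and Rescue preB at 26%, against 16%. Of the 70 gained peaks, Rescue proB held 45.7% and Rescue preB 50%, against 49.2% and 50.8% of all gained peaks, and Erg KO pre-proB held 17.1% against 11.9%.

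From Rescue pre-proB to Rescue proB, 59 of 225 peaks (26.2%, 20.9 to 32.3) were lost, against 33.1% of the whole list, and 45 of 219 (20.5%, 15.7 to 26.4) were gained, against 21.8%. In regions of all lists 12 were at least 2-fold higher and 7 at least 2-fold lower in Rescue proB, against 10.6% and 10.5% of all such regions. All 3 such regions of Ets2 were among the higher ones.

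Among proB regions in all lists, 3 were at least 2-fold higher and 5 at least 2-fold lower in Rescue than in WT, against 4.69% and 3.89% of all such regions. Etv6 +172.3 kb was 3.07 times higher in Rescue proB than in WT proB (2.05 to 4.69) and Etv6 +184.8 kb 1.96 times (1.67 to 2.3), which places Rescue proB between WT pre-proB and WT proB at both. Ets1 +9.8 kb was at 0.511 of WT proB in Rescue proB (0.445 to 0.585) and Etv6 +150.8 kb, with the paired ETS words, at 0.4 (0.287 to 0.549). In preB cells 1 region was at least 2-fold higher and 1 at least 2-fold lower, against 1.62% and 0.868%.

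Of the 8 promoters, Elf1 and Elk3 were lower in Rescue proB than in WT proB, at 0.707 (0.601 to 0.83) and 0.82 (0.681 to 0.985), and Ets1 was higher, at 1.18 (1.04 to 1.34). In preB the Ets1 and Etv6 promoters were lower in Rescue, at 0.848 (0.752 to 0.957) and 0.825 (0.717 to 0.95), where all promoter regions together stood at 0.923. Against that shift the ratio was 0.919 (0.814 to 1.04) for Ets1 and 0.893 (0.776 to 1.03) for Etv6, and both intervals included 1. Gabpa was then higher, at 1.17 (1.07 to 1.3). The remaining intervals before this correction included 1.

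Over all 312 regions, 106 (34%, 28.9 to 39.4) were in all 7 lists, against 32% of all union regions. The 3 pre-proB lists alone held 19 (6.09%, 3.93 to 9.31), fewer than the 11.5% of all union regions, and 7 of the 19 were at Etv6. The 4 proB and preB lists alone held 17 (5.45%, 3.43 to 8.55), near the 5.19% of all, with 4 each at Ets2 and Elk3. A pattern that followed Erg was not seen: 0 regions were in the 3 WT lists and no Erg-deficient list, and 0 in the 4 Erg-deficient lists and no WT list, where the whole genome gave 0.139% and 0.12%. A count of 0 of 312 allows a share of up to 1.22% (Wilson), so shares of the size seen over the genome were not detectable at this number of regions.

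Some elements of later stages had a weak peak in WT pre-proB and none in the Erg-deficient pre-proB libraries. Among the 22 regions in the 4 proB and preB lists and in neither Erg-deficient pre-proB list, 5 (22.7%, 10.1 to 43.4) had a WT pre-proB peak, against 17.1% of such regions in the genome. They were Etv6 +253.0 kb, Ets2 +18.6 kb, Ets1 -85.2 kb, Elk3 +86.3 kb and Etv6 +275.9 kb, with WT pre-proB heights of 0.458, 0.301, 0.337, 0.253 and 0.217. In reverse, 2 of 23 such regions (8.7%, 2.42 to 26.8) had a peak in both Erg-deficient lists and none in WT pre-proB, against 10.9%. Without the Rescue libraries, 35 regions (11.2%) were in pre-proB lists only, against 18.3% of all, and 26 (8.33%) in proB and preB lists only, against 7.96%. The sets of 22 and 23 regions were formed after the values had been seen.

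Marker promoters differed between the same libraries, and their part in these differences was not tested. Of 9 B-lineage markers, the promoter was called in 9, 6 and 7 for WT, Erg KO and Rescue pre-proB and in 9 in each proB and preB library, with Pax5 and Vpreb1 without a peak in both Erg-deficient pre-proB lists. Of 10 T-cell markers, 4 had a peak in WT pre-proB, 7 in each Erg-deficient pre-proB library and 3 to 5 in the later ones. Cd4, Tcf7 and Bcl11b had a peak in both Erg-deficient pre-proB lists and none in WT pre-proB. Cd3e, Cd3d and Zap70 had no peak in any list. Of 10 markers each, NK and innate lymphoid genes had 7 in each pre-proB library and 3 to 7 later, plasmacytoid dendritic genes 10 in each pre-proB library and 8 to 9 later, myeloid genes 3 to 4 and erythroid genes 5 to 6 throughout.

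**Figure D4:**
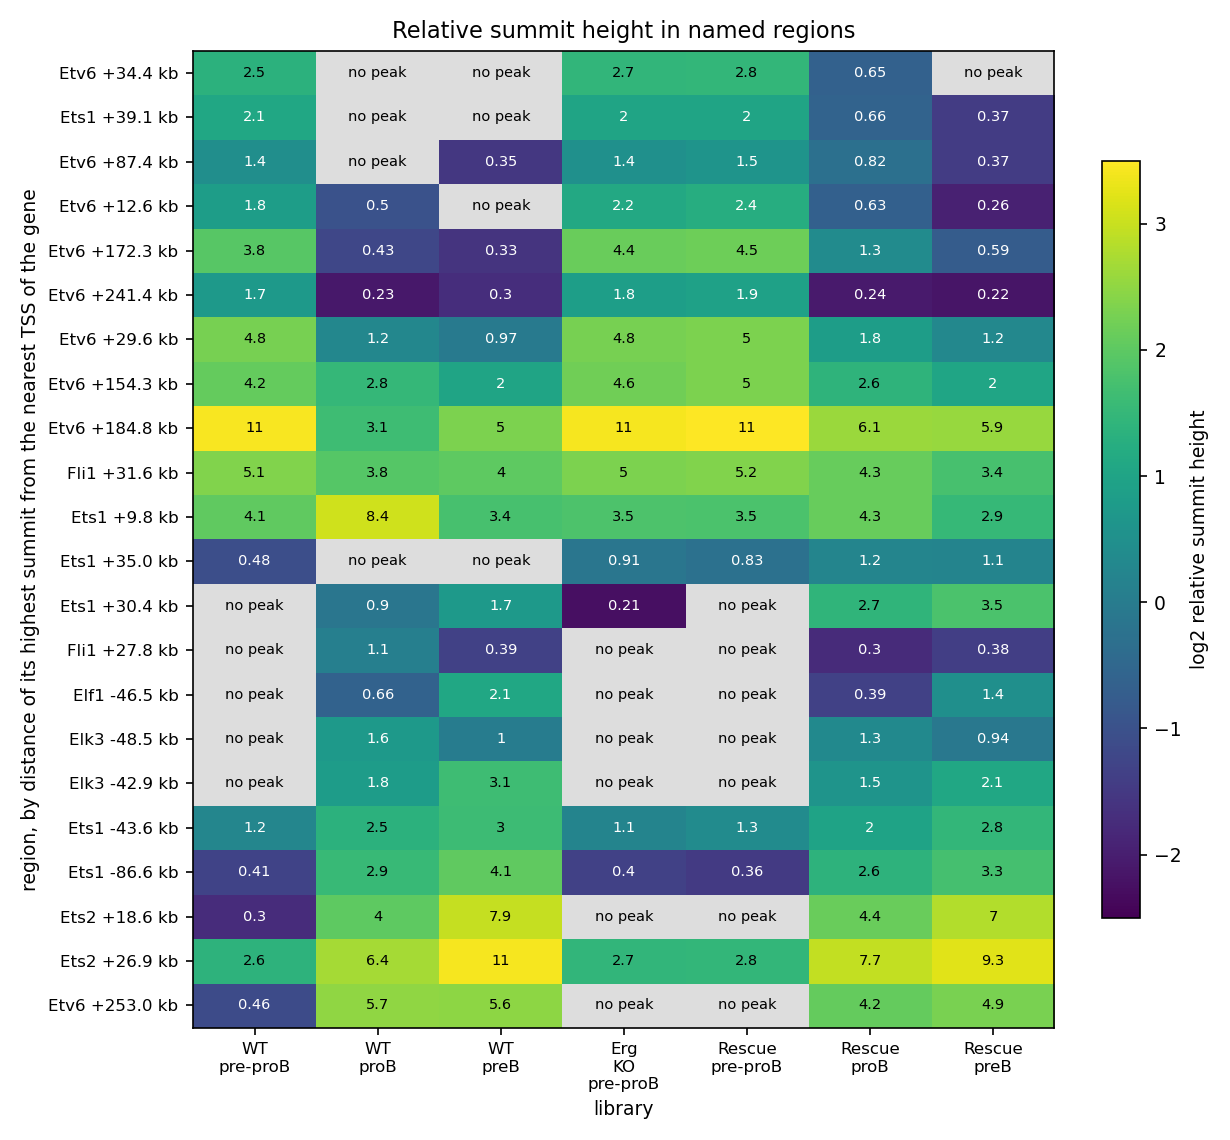
Relative summit height in named regions (rows, by gene and distance from its TSS) in the 7 libraries (columns), with the value in each cell, colour on a log2 scale and grey where a list held no peak. The upper rows are high in the 3 pre-proB columns and the lower rows in the proB and preB columns, while Ets1 +35.0 kb has no peak in WT proB and preB and is highest in Rescue proB, at 1.18.

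The likeness of other promoters was read for Ets2, whose promoter had the widest range. Of 3357 coding genes with a promoter peak in every list and a range of at least 1 log2, Fgl2, Diexf and Hspa12a had the highest Pearson r of log2 promoter height with Ets2, 0.998 each over the 7 libraries. Hspa12a ran from 0.25 in Rescue pre-proB to 2.33 in WT preB. The 7 points share depth and centring, and the r is a description.

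The windows held ETS words about as often as open chromatin elsewhere. In the 300 bp around the highest summit, 40 of 312 regions (12.8%, 9.56 to 17) held an ETS word, against 13.3% of all union regions. PU.1 words were found in 27 (8.65% against 8.53%), RUNX words in 44 (14.1% against 13.6%) and E-box words in 145 (46.5% against 44.1%). The CTCF word was rarer than elsewhere, in 12 (3.85%, 2.21 to 6.6, against 8.54%, though over whole regions 8.97%, 6.28 to 12.7, against 11.6%), and the EBF1 word was found in 3 (0.962%, 0.328 to 2.79, against 1.9%).

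Within the 106 regions in all 7 lists, 23 (21.7%, 14.9 to 30.5) held an ETS word, against 14.4% of all regions in all lists. Of these, 7 were around Fli1, 6 around Etv6, 3 around Elf4, 2 each around Ets1, Elf1 and Elk3, 1 around Gabpa and 0 around Ets2. In the 19 regions of pre-proB lists only and the 17 of proB and preB lists only, 1 each held an ETS word. Over whole regions in place of 300 bp the share among regions in all lists was 34% (25.6 to 43.4), against 31.2%.

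Promoter sequences of RefSeq (GRCm38.p6, 250 bases before to 50 after a start) were matched for 6 of the 8 genes, in 8 promoters. Fli1 and Ets1 had no entry and were not examined. The promoter of Gabpa held an ETS word and a PU.1 word, and the others examined held neither. Of all 32851 promoters in that table, 9.11% held an ETS word and 3.2% a PU.1 word. A match of letters is a description of the sequence and does not show binding.

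**Figure D5:**
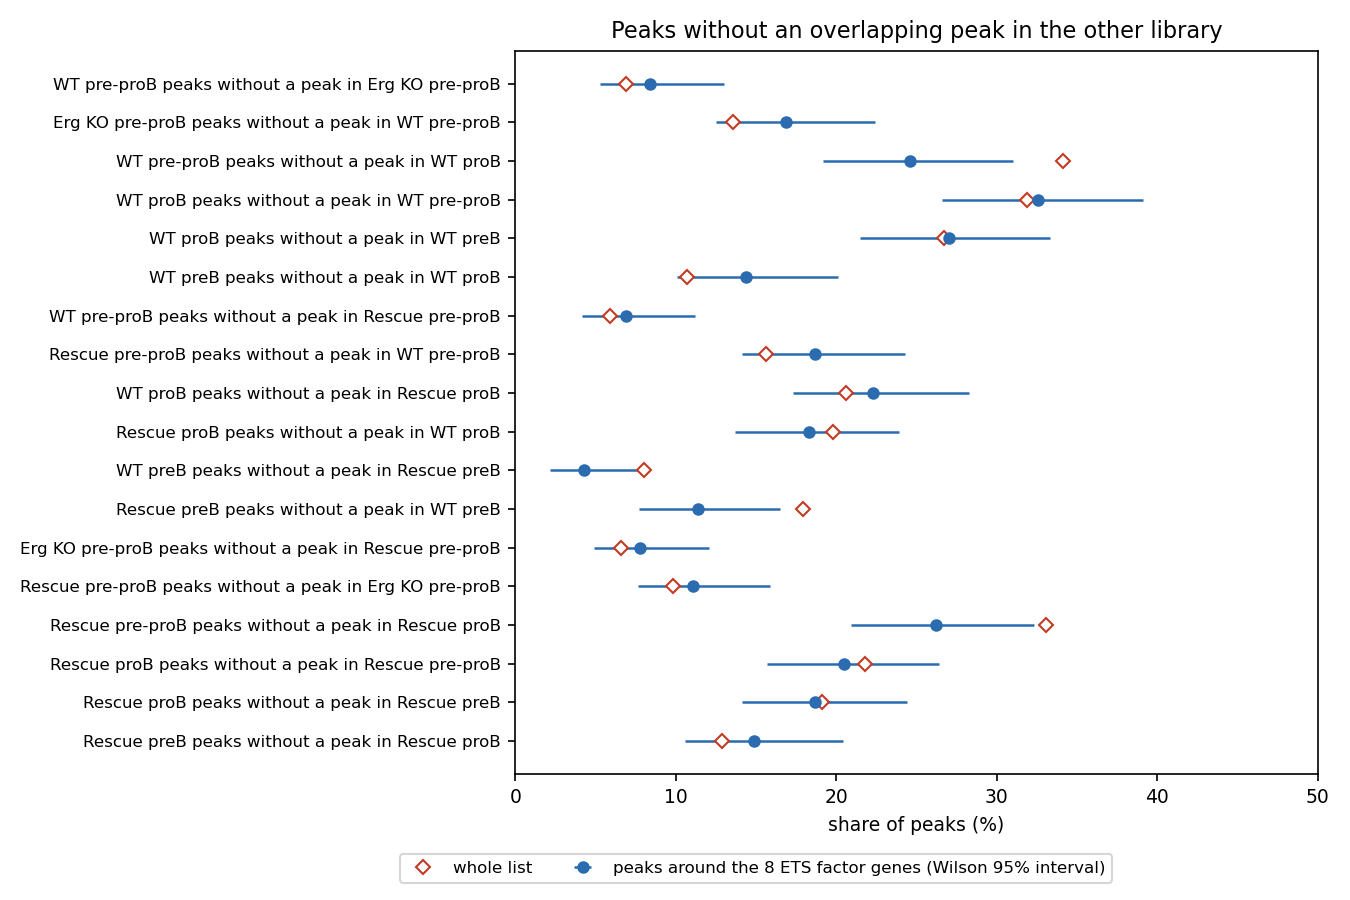
Share of peaks without an overlapping peak in the other library, for peaks around the ETS factor genes (points, with Wilson 95% intervals) and for the whole list (open diamonds), with each pair of libraries read in both directions. The diamond lies outside the interval for the WT pre-proB peaks lost in WT proB (24.6% against 34.1%), for Rescue preB peaks without a WT preB peak (11.4% against 17.9%, but 16.6% against 14.8% at a -log10 q of at least 10) and for Rescue pre-proB peaks without a Rescue proB peak (26.2% against 33.1%).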

How the data were processed

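ATAC-seq libraries of 7 groups (WT, Erg KO and Rescue) were analysed from the narrowPeak lists the authors deposited, 1 per library. The submitters' processing notes name CASAVA 1.8.2, Bowtie2, Picard, MACS2 and mm10, and peaks were called per library. Calling options, duplicate handling, read shift and control were not stated in the labels or methods used here, and the sources differ on fragmentation (sonication in the methods, Tn5 tagmentation in the labels). Each list holds a display score (10 times the −log10 q), the fold over background at the summit, −log10 p-values and −log10 q-values, all deposited by the authors. Summit pileups were recovered from the steps of the fold ratio in the files the authors deposited.

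Peaks were merged into union regions across lists (overlap of at least 1 bp), and promoters were taken as 1000 bp on each side of a TSS. Shares carry Wilson intervals, summits exact Poisson intervals and ratios conditional Clopper-Pearson intervals. The genome was GRCm38.p6 of RefSeq, the build of mm10, with 0 peaks past a chromosome end on 21 chromosomes. Python 3.11.15, numpy 2.4.6, pandas 2.3.3, scipy 1.17.1 and matplotlib 3.10.9 were used, and the scripts were tested on simulated data. The members and lists were chosen with earlier results of these data known. Regions were named as the highest distal region of each gene, the 3 highest unshared peaks per direction, and the 3 widest ranges among regions in all lists, and others were named after their values were seen. A marker of the B-lineage list is not reported here, and its counts cover the other 9.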

Additional observations from a re-analysis of the deposited data

Results flagged for a closer look

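Of 61 named regions and promoters examined, Ets1 +35.0 kb had WT and Rescue heights that moved in opposite directions from pre-proB to the later stages. Its height was 1.42 times as high in Rescue proB as in Rescue pre-proB, while WT went from 0.482 to no peak in proB and preB. With 1 library per group the difference was not tested. It also depends on the titles: with Rescue stages read from the source names, the Rescue heights would be 1.15, 0.83 and 1.18 at pre-proB, proB and preB. Rescue proB would then be lower than Rescue pre-proB. A region without a peak at both stages of a genotype was given no direction.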

How the results depend on the processing

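Of 208 alternative values for 41 results, 148 stayed within counting error or 1.5 times and 60 moved. Some relations between values turned: with lists cut to the length of the shortest, the Erg KO peaks without WT went from the larger to the smaller share (WT without Erg KO 9.94%) and from above to below the whole list. WT proB against pre-proB gave 12 regions higher and 14 lower with promoter centring, against 15 and 13. Shares below are of peaks in the windows without a peak in the second library. Where no whole-list share stands beside one, a change in the windows cannot be told from a change over the whole list. With lists cut to the length of the shortest, Erg KO without WT was 2.03% (whole list 8.33%), WT proB without WT preB 18.1%, Rescue pre-proB without WT 5.92% and Erg KO without Rescue 4.73%. At the harder cut, WT without Erg KO was 5.06% (whole list 5.82%) and Erg KO without WT 3.8% (whole list 6.02%). WT proB without WT preB was then 15.1%, and WT without Rescue 2.53% at pre-proB and 17.2% at proB. Rescue pre-proB without WT was 6.17%, Erg KO without Rescue 1.27% and Rescue without Erg KO 6.17%. With -log10 q of at least 10, Erg KO without WT was 5.52% (whole list 10.4%), WT preB without WT proB 8.33%, WT without Rescue 2.7% at pre-proB, Rescue without WT 9.68% at pre-proB, 13.6% at proB and 16.6% at preB (whole list 14.8%), and Erg KO without Rescue 2.76%. With a reciprocal overlap of 50%, WT without Erg KO was 17.2% (11.5%), Erg KO without WT 23.3% (17.5%), WT pre-proB without WT proB 43.8% (47.1%), the reverse 47% (44.8%), WT proB without WT preB 39.1%, the reverse 30.3%, WT without Rescue 13.8% at pre-proB, 33.5% at proB and 14.4% at preB, Rescue without WT 34.7% at proB and 20.3% at preB, Erg KO without Rescue 15.1% and the reverse 17.3%. With Rescue stages read from the source names, WT without Rescue was 28.1%, 31.2% and 11.7% at pre-proB, proB and preB, Rescue without WT 29.2%, 32.4% and 22.8%, Erg KO without Rescue 34.2% and the reverse 28.7%. The causes were not tested, except that a stricter overlap leaves fewer peaks shared by construction.

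Among heights, Rescue against WT at preB gave 4 regions higher and 0 lower with promoter centring, 5 higher and 0 lower without centring, 0 lower with no flank, and 2 higher and 2 lower with 100 kb. Rescue against WT at proB gave 5 higher and 4 lower without centring, against 3 and 5, and WT proB against pre-proB gave 7 higher with no flank. Promoter centring set the WT preB to pre-proB ratio at 1.66 for Fli1, 2.12 for Ets2 and 1.68 for Elk3. Over whole regions the word shares were 19.6% for ETS (all regions 21.7%), 12.8% for PU.1 (11.8%), 22.4% for RUNX (21.5%), 62.8% for E-box (60.5%) and 8.97%, 6.28 to 12.7, for CTCF (11.6%), and the E-box share was 37.5% (35.4%) in 200 bp. Without the Rescue libraries, an alternative chosen after seeing the data, 35 regions (11.2%, all 18.3%) were in pre-proB lists only and 26 (8.33%, all 7.96%) in proB and preB lists only. All 8 promoters kept a peak in every list under each alternative run for them. No paired analysis was possible because each group had 1 library. Depth limits the weak peaks: summits near the lowest pileup of 10 to 12 fragments can be missed in a library.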
